A study of Brassica napus with 27 samples.

Results

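The contrast described here is the change of the response of *Brassica napus* leaves to halauxifen-methyl (Hal) from 48 to 96 h after application. For each gene it is the Hal-minus-control difference at 96 h minus the same difference at 48 h, in log2(FPKM + 1), where FPKM is a read level per gene length and sequencing depth. A positive contrast means that Hal leaves stood higher relative to control leaves at 96 h than at 48 h ("shifted up"), and a negative contrast that they stood lower ("shifted down"). Genes entered when 3 or more of the 27 libraries reached 1 FPKM, which left 46395 of the 104573 genes in the table. The contrast uses 12 libraries, 3 each of Hal leaves at 48 h, control leaves at 48 h, Hal leaves at 96 h and control leaves at 96 h. The plants were of cultivar Visby, grown at 15 °C to stage BBCH11, and the labels name no introduced allele. Hal leaves had received 5 drops with 0.5 µg Hal. Control leaves, although labelled as having had no treatment, had received the solvent by the design text. Picloram (Pic) leaves of the same hours, at 2.4 µg, were used only where the change in Hal leaves was set against that in Pic leaves. The labels give these doses per leaf, while the study's methods give them per plant, so the unit is uncertain. Each library is a separate replicate from different plant material per the labels, which do not say how many plants a library holds, and each is bulk RNA, so that fewer cells of a type and less RNA per cell cannot be told apart.

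Hal is a synthetic auxin of the arylpicolinate family, applied against broadleaf weeds. Auxins bind TIR1/AFB receptors, F-box proteins that then mark the Aux/IAA repressors for breakdown and so release the auxin response factors (ARFs), the transcription factors that switch on auxin-responsive genes such as SAUR genes and the Aux/IAA genes themselves. Auxinic herbicides are known for overstimulating this pathway in sensitive plants, with ethylene and abscisic acid formation, loss of photosynthesis and senescence as later events, while oilseed rape is a crop in which some of them can be used. The comparison asks which parts of the leaf's response were still growing at the later harvest and which had passed.

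The 12 libraries held 15743260 to 18384758 reads on genes, worked back from FPKM and gene length. The leaf label was checked on markers: summed chlorophyll a-b binding protein transcripts were 115048 to 120507 FPKM in Hal leaves and 131449 to 159898 FPKM in control leaves at 48 h, and 87259 to 96204 FPKM in Hal leaves and 124326 to 141428 FPKM in control leaves at 96 h. Of 16 seed storage and oil body genes, 11 had 0 reads in the 12 libraries and the highest had 116 reads in all of them. 2 properties of the libraries touch the results. First, the deposited values were scaled so that the median gene is level between libraries, and the 12 libraries differ in what that scaling did: its denominator was 1.10 to 1.13 times the total reads in Hal leaves at 48 h, against 0.81 to 0.87 times in control leaves, and 1.20 to 1.25 times in Hal leaves at 96 h, against 0.75 to 0.81 times in control leaves. With equal totals of reads in its place the median contrast moved up by 0.17. Second, in 3505 genes the 100 neighbouring genes on the chromosome had a median contrast over 0.3 in size, and 47.8% of these genes were called, against 24.0% of the 37637 genes in other windows.

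Hal and control leaves differed in 22486 genes at 48 h (48.5% of those tested) and in 27515 genes at 96 h (59.3%), at an adjusted p under 0.05 in limma. At 48 h 10828 genes were upregulated and 11658 downregulated in Hal leaves, and at 96 h 13516 and 13999. The difference itself changed in 12032 genes, or 25.9%: 5317 genes shifted up (11.5%) and 6715 shifted down (14.5%), and 4473 of the 12032 had a contrast of at least 1 in size. With equal totals the split turned to 8479 up and 4097 down, so which direction holds more genes depends on the scaling. Leaving out any 1 of the 12 libraries gave 4485 to 5185 genes up and 5842 to 6630 down, and 8378 of the 12032 genes stayed called under each of these 12 fits, none with a changed sign. Without the genes of shifted windows and those with no place on a chromosome, 3631 of 37637 genes shifted up and 5143 down.

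What deepened outweighed what faded. Genes downregulated at 96 h with a negative contrast, called here deepening falls, were the largest class with 4750 genes, of which 2214 had not been called at 48 h. Deepening rises, upregulated at 96 h with a positive contrast, numbered 3158, of which 1983 had not been called at 48 h. Fading rises, upregulated at 48 h with a negative contrast, numbered 1259, and 962 of them were no longer called at 96 h. Fading falls, downregulated at 48 h with a positive contrast, numbered 1461, of which 978 were no longer called. Another 623 genes turned from a fall at 48 h to a rise at 96 h, 631 turned from a rise to a fall, and 150 called genes had no call at either hour. With equal totals there were 6455 deepening rises and 2257 deepening falls, against 1319 fading rises and 1210 fading falls, so more genes deepened than faded under both scalings, but the order of the deepening classes did not hold. The 48 h and the 96 h differences enter both the classes and the contrast, and the classes are a sorting of the contrast, not a further test.

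Since the contrast is the change in Hal leaves minus the change in control leaves, each class was split by where the level moved. Between 48 and 96 h, 5400 genes rose (11.6%) and 5032 fell (10.8%) in Hal leaves, while 8133 rose (17.5%) and 5698 fell (12.3%) in control leaves. Among the deepening falls, 2417 of 4750 genes had moved in control leaves alone, 992 in Hal leaves alone and 1040 in both. Their median change was -0.30 in Hal leaves and 0.54 in control leaves, and in 34.8% of them the Hal leaves moved further than the control leaves. Deepening rises were more even, with 1270 genes moved in Hal leaves alone, 1083 in control leaves alone and 505 in both, and a median change of 0.46 in Hal leaves and -0.39 in control leaves. Of the fading rises, 460 moved in Hal leaves alone and 518 in control leaves alone, and of the fading falls 452 in Hal leaves alone and 608 in control leaves alone. With equal totals 8689 genes rose and 3663 fell in Hal leaves, while 5686 rose and 6446 fell in control leaves, so the direction that held more genes in control leaves turned with the scaling.

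**Figure D1:**
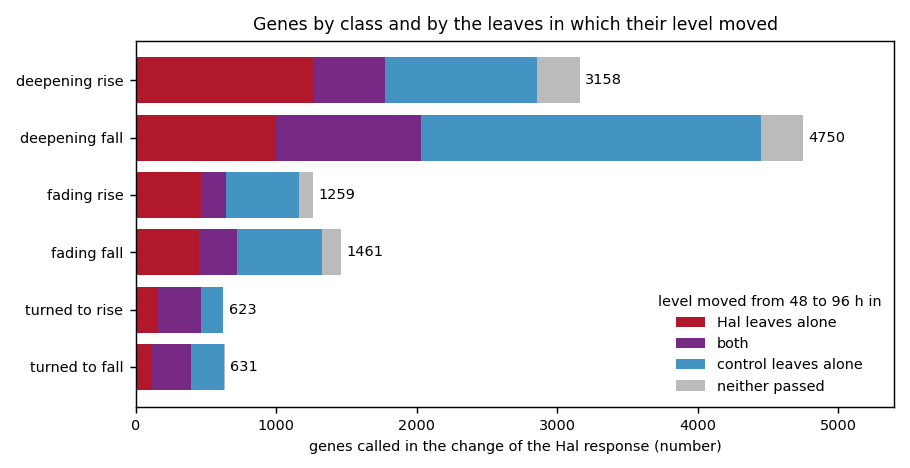
Number of genes in each class of the change of the Hal response (horizontal axis), with bars split by the leaves in which the level moved from 48 to 96 h (adjusted p under 0.05). The deepening falls are the longest bar with 4750 genes, and 2417 of them moved in control leaves alone.

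The deepening rises with the largest contrasts included genes of defence and of small RNAs. BnaA09g53760D, a peroxidase gene (peroxidases oxidise wall and defence substrates with hydrogen peroxide), had 4.69, 4.03 and 5.04 FPKM in Hal leaves at 48 h, against 6.17, 4.38 and 5.90 FPKM in control leaves. For BnaA09g53760D at 96 h, the libraries had 25.3, 21.0 and 25 FPKM in Hal leaves, against 2.02, 1.61 and 1.64 FPKM in control leaves. Hal and control leaves overlapped at 48 h and were far apart at 96 h, where Hal leaves had climbed and control leaves had dropped. Its contrast was 3.38 ± 0.21 (SE, adjusted p = 1.6e-11). BnaA07g32130D, which codes for a defensin, a small antimicrobial peptide, had 87.1, 81.6 and 81.2 FPKM in Hal leaves at 48 h, against 40.2, 36.7 and 28.1 FPKM in control leaves. For BnaA07g32130D at 96 h, the libraries had 313, 302 and 297 FPKM in Hal leaves, against 18.5, 17.1 and 20.2 FPKM in control leaves. It was upregulated at both hours, with differences of 1.24 at 48 h and 3.96 at 96 h, and its contrast was 2.72 ± 0.24 (SE, adjusted p = 4.9e-09).

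Precursors of miR156, the microRNA that holds back SPL transcription factors and keeps shoots juvenile, took 3 of the 5 places by size of the contrast among deepening rises with a description. Each of these rests on few reads. The locus ENSRNA049464944 had 15, 12 and 9 reads in Hal leaves at 48 h, against 6, 9 and 17 in control leaves, and 40, 27 and 47 reads in Hal leaves at 96 h, against 1, 2 and 1 in control leaves. Its contrast was 3.39 ± 0.66 (SE, adjusted p = 4.2e-04), with lower reads in control leaves and higher reads in Hal leaves at the later hour. ENSRNA049468749 had 7, 2 and 2 reads in Hal leaves at 48 h, against 1, 6 and 1 in control leaves. At 96 h it had 34, 18 and 16 reads in Hal leaves, against 1, 0 and 2 in control leaves. Its contrast of 2.75 ± 0.66 (SE, adjusted p = 0.003) missed the threshold with a pseudocount of 0.1 (adjusted p = 0.056). ENSRNA049465826 had a contrast of 2.79 ± 0.69 (SE, adjusted p = 0.004), with 17, 13 and 8 reads in Hal leaves at 96 h and 0 reads in each control library of that hour. At 48 h it had 7, 0 and 7 reads in Hal leaves, against 2, 5 and 1 in control leaves. The loci did not move as one, since the locus ENSRNA049474664 was a fading rise. It had 22, 25 and 24 reads in Hal leaves at 48 h, against 1, 0 and 0 in control leaves. At 96 h this locus had 12, 13 and 10 reads in Hal leaves, against 4, 13 and 2 in control leaves (contrast -3.10 ± 0.62 SE, adjusted p = 5.5e-04). The remaining 10 of the 14 tested loci did not pass, out of 33 in the table, and sequences were not compared among them.

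2 further deepening rises were chosen after their values were seen, for their high levels. BnaA03g38630D, described as PR-1a, of the pathogenesis-related family whose Arabidopsis member PR1 marks salicylic acid responses, had 577, 602 and 552 FPKM in Hal leaves at 48 h, against 309, 313 and 296 FPKM in control leaves. For BnaA03g38630D at 96 h, the libraries had 905, 933 and 871 FPKM in Hal leaves, against 123, 135 and 144 FPKM in control leaves. Levels in Hal leaves rose further and levels in control leaves fell, and all 4 groups were apart. Its contrast was 1.83 ± 0.11 (SE, adjusted p = 5.1e-12). BnaC03g18820D, described as auxin repressed protein 1, had 705, 655 and 659 FPKM in Hal leaves at 48 h, against 121, 105 and 118 FPKM in control leaves. For BnaC03g18820D at 96 h, the libraries had 969, 921 and 909 FPKM in Hal leaves, against 24.5, 26.0 and 33.5 FPKM in control leaves. Here the fall in control leaves was the larger part, with changes from 48 to 96 h of 0.47 in Hal leaves and -2.01 in control leaves, and the contrast was 2.48 ± 0.13 (SE, adjusted p = 9.1e-13).

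The 5 named deepening falls with the largest contrasts were genes of different kinds. BnaA01g07470D, a gene for protein S30 of the small ribosomal subunit, had 9.18, 9.82 and 10.9 FPKM in Hal leaves at 48 h, against 6.67, 7.35 and 10 FPKM in control leaves. For BnaA01g07470D at 96 h, the libraries had 5.99, 6.80 and 7.58 FPKM in Hal leaves, against 62.3, 51.7 and 69.8 FPKM in control leaves. The level rose by 2.80 on the log2 scale in control leaves, Hal leaves changed by -0.50, and the contrast was -3.29 ± 0.25 (SE, adjusted p = 6.5e-10). BnaA07g11510D, a plastocyanin gene (the copper protein that carries electrons to photosystem I), had 8.36, 9.0 and 9.44 FPKM in Hal leaves at 48 h, against 13.3, 8.17 and 10.5 FPKM in control leaves. For BnaA07g11510D at 96 h, the libraries had 2.83, 2.89 and 4.44 FPKM in Hal leaves, against 34.9, 48.2 and 37.8 FPKM in control leaves. The groups overlapped at 48 h, and at 96 h Hal leaves were lower and control leaves higher than before (contrast -3.03 ± 0.22 SE, adjusted p = 3.0e-10). BnaC02g39910D, an alpha-tubulin gene, whose product builds microtubules, had 15.1, 14.5 and 14.1 FPKM in Hal leaves at 48 h, against 19.5, 23.6 and 24.4 FPKM in control leaves. For BnaC02g39910D at 96 h, the libraries had 0.114, 0.118 and 0.216 FPKM in Hal leaves, against 12.1, 11.8 and 13.8 FPKM in control leaves. The level nearly vanished from Hal leaves at 96 h, with a contrast of -2.97 ± 0.17 (SE, adjusted p = 4.0e-12) against a median of 0.31 over its neighbours.

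The other members of these 5 were a second peroxidase gene and an RNA of protein targeting. BnaC08g44140D, a peroxidase gene, had 0.419, 0.284 and 0.862 FPKM in Hal leaves at 48 h, against 2.18, 1.33 and 1.55 FPKM in control leaves. For BnaC08g44140D at 96 h, the libraries had 0.0468, 0.0486 and 0.0508 FPKM in Hal leaves, against 14.3, 15.5 and 14.7 FPKM in control leaves, with a contrast of -3.09 ± 0.19 (SE, adjusted p = 1.4e-11), opposite in direction to the peroxidase gene BnaA09g53760D. The level rose in control leaves and fell in Hal leaves, with changes of -0.52 in Hal leaves and 2.57 in control leaves. A Plant_SRP locus, ENSRNA049468883, the RNA of the signal recognition particle that brings nascent proteins to the endoplasmic reticulum, had 0.678, 0.368 and 0.372 FPKM in Hal leaves at 48 h, against 0.911, 2.15 and 2.18 FPKM in control leaves. For Plant_SRP at 96 h, the libraries had 0.606, 0.157 and 0.493 FPKM in Hal leaves, against 18.2, 22.9 and 21.0 FPKM in control leaves, with a contrast of -3.07 ± 0.55 (SE, adjusted p = 1.5e-04). Its level rose in control leaves, with a change of 3.01 there and -0.06 in Hal leaves.

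Among the fading rises, the largest contrast belonged to a sugar transporter that was measured in 1 of the 4 groups. BnaC09g25980D codes for a SWEET protein, of a family that lets sugars pass across membranes in both directions, and had 30.1, 25.4 and 24.0 FPKM in Hal leaves at 48 h, against 0.0665, 0 and 0 FPKM in control leaves. For BnaC09g25980D at 96 h, the libraries had 0, 0 and 0 FPKM in Hal leaves, against 0, 0 and 0 FPKM in control leaves. It was read in all 3 Hal libraries of 48 h and was at or near 0 in the other 9, with a contrast of -4.74 ± 0.17 (SE, adjusted p = 4.5e-16). BnaA02g02910D, described as BN28a, of a cold-induced gene family of oilseed rape, had 243, 243 and 236 FPKM in Hal leaves at 48 h, against 45.0, 42.9 and 41.9 FPKM in control leaves. For BnaA02g02910D at 96 h, the libraries had 142, 138 and 125 FPKM in Hal leaves, against 156, 146 and 187 FPKM in control leaves. Hal leaves came down and control leaves went up to just above them, with differences of 2.45 at 48 h and -0.26 at 96 h and a contrast of -2.71 ± 0.19 (SE, adjusted p = 1.7e-10). Its neighbours had a median contrast of -0.28.

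BnaA09g18460D, a gene for phosphoglycolate phosphatase, an enzyme of photorespiration, averaged 4.32 ± 0.248 FPKM in Hal leaves and 0.0412 ± 0.0357 FPKM in control leaves at 48 h. For BnaA09g18460D at 96 h, the means were 2.59 ± 0.125 FPKM in Hal leaves and 2.63 ± 0.467 FPKM in control leaves (SD, n = 3 each). The level rose in control leaves and fell in Hal leaves until they overlapped, and the contrast was -2.36 ± 0.18 (SE, adjusted p = 3.7e-10). BnaCnng14900D, another peroxidase gene, averaged 5.31 ± 1.38 FPKM in Hal leaves and 0.782 ± 0.503 FPKM in control leaves at 48 h. For BnaCnng14900D at 96 h, the means were 0.457 ± 0.177 FPKM in Hal leaves and 1.09 ± 0.237 FPKM in control leaves (SD, n = 3 each), with a contrast of -2.36 ± 0.33 (SE, adjusted p = 6.6e-06). In this gene the fading came from Hal leaves, with changes of -2.10 in Hal leaves and 0.26 in control leaves.

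Fading falls held a Rubisco gene and several genes read at 0 in Hal leaves. BnaC02g17140D codes for a small chain of Rubisco, the enzyme that fixes carbon dioxide, and had 2.00, 2.38 and 1.92 FPKM in Hal leaves at 48 h, against 50.2, 34.6 and 35.5 FPKM in control leaves. For BnaC02g17140D at 96 h, the libraries had 3.46, 4.08 and 4.51 FPKM in Hal leaves, against 6.36, 5.96 and 7.33 FPKM in control leaves. Most of the fading came from control leaves, in which the level fell toward that of Hal leaves, while Hal leaves rose slightly (contrast 3.12 ± 0.23 SE, adjusted p = 3.7e-10). BnaC09g28670D, a gene for protein S10 of the small ribosomal subunit, had 0, 0 and 0 FPKM in Hal leaves at 48 h, against 3.76, 4.33 and 3.14 FPKM in control leaves. For BnaC09g28670D at 96 h, the libraries had 8.80, 9.28 and 9.42 FPKM in Hal leaves, against 7.28, 7.85 and 7.31 FPKM in control leaves. It was listed at 0 in Hal leaves at 48 h and lay slightly above control leaves at 96 h, where the difference of 0.26 did not pass (adjusted p = 0.13), with a contrast of 2.50 ± 0.21 (SE, adjusted p = 2.6e-09). BnaC08g39130D, for the mitochondrial 10 kDa chaperonin that assists protein folding, was read in control leaves at 48 h (7.68, 4.92 and 7.6 FPKM) and listed at 0 in the other 9 libraries, and BnaC03g69200D, for signal peptidase I, which removes signal peptides, had 7.57, 5.44 and 6.54 FPKM in control leaves at 48 h and at most 0.423 FPKM elsewhere. In both genes the level fell in control leaves, and Hal leaves were at or near 0 at both hours. snoR116 (ENSRNA049465300), a small nucleolar RNA that guides modification of ribosomal RNA, averaged 0.213 ± 0.370 FPKM in Hal leaves and 7.71 ± 1.43 FPKM in control leaves at 48 h. For snoR116 at 96 h, the means were 4.03 ± 0.348 FPKM in Hal leaves and 4.41 ± 1.88 FPKM in control leaves (SD, n = 3 each), with a contrast of 2.82 ± 0.64 (SE, adjusted p = 0.0018).

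Among the tested genes, 326 were under 0.1 FPKM in all 3 libraries of 1 group and at least at 2 FPKM in all 3 libraries of another. Of the 326, 212 were called, beside 25.9% of all tested genes. The 326 were picked for a large difference between groups, so a high called share follows in part from the choice. Of these 212, 17 were on in a single group, 6 of them in Hal leaves at 48 h, and 24 were off in a single group, 17 of them in Hal leaves at 48 h. The A and C genomes of oilseed rape carry near-identical copies of most genes, and how reads were divided between copies is not given in the sources used here, so the level of a single copy is uncertain.

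Genes that turned carried some of the largest contrasts. Of those that turned to a rise 29.2% lay in shifted windows, and of those that turned to a fall 27.9%, against 13.9% of all called genes. The share was 22.2% for fading falls, 15.6% for fading rises, 12.3% for deepening rises and 8.29% for deepening falls. BnaC03g71650D, for a CASP-like protein, of the family that includes the Casparian strip membrane proteins, had 0.504, 0.625 and 0.158 FPKM in Hal leaves at 48 h, against 17.8, 14.8 and 14.6 FPKM in control leaves. For BnaC03g71650D at 96 h, the libraries had 18.3, 18.6 and 17.5 FPKM in Hal leaves, against 11.5, 10.6 and 7.64 FPKM in control leaves. Hal leaves were far below control leaves at 48 h and above them at 96 h, with a contrast of 4.39 ± 0.27 (SE, adjusted p = 1.5e-11). BnaA06g10520D, for a chlorophyll a-b binding protein of the light-harvesting antenna, had 578, 639 and 620.0 FPKM in Hal leaves at 48 h, against 1719, 2158 and 2033 FPKM in control leaves. For BnaA06g10520D at 96 h, the libraries had 1538, 1668 and 1554 FPKM in Hal leaves, against 996, 1055 and 1104 FPKM in control leaves. Its level rose in Hal leaves and fell in control leaves, with changes of 1.37 in Hal leaves and -0.90 in control leaves and a contrast of 2.27 ± 0.14 (SE, adjusted p = 9.9e-12). BnaCnng02920D, for a mitochondrial isocitrate dehydrogenase subunit of the citric acid cycle, averaged 0.0269 ± 0.0467 FPKM in Hal leaves and 3.73 ± 0.856 FPKM in control leaves at 48 h. For BnaCnng02920D at 96 h, the means were 12.7 ± 0.976 FPKM in Hal leaves and 7.35 ± 0.870 FPKM in control leaves (SD, n = 3 each), with a contrast of 2.90 ± 0.20 (SE, adjusted p = 1.2e-10).

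In the opposite direction, BnaC06g33320D, described as the drought-induced protein BnD22, had 82.3, 81.4 and 74.2 FPKM in Hal leaves at 48 h, against 39.8, 34.7 and 41.8 FPKM in control leaves. For BnaC06g33320D at 96 h, the libraries had 29.1, 26.5 and 29.4 FPKM in Hal leaves, against 204, 204 and 200 FPKM in control leaves. Hal leaves lay above control leaves at 48 h and far below them at 96 h, and the contrast was -3.82 ± 0.12 (SE, adjusted p = 2.1e-17). It lies in a block of shifted genes on chromosome C06, and its neighbours had a median contrast of -0.80. BnaC07g33030D, for a UDP-glycosyltransferase, an enzyme that adds sugars to small molecules, averaged 3.76 ± 0.681 FPKM in Hal leaves and 1.22 ± 0.532 FPKM in control leaves at 48 h. For BnaC07g33030D at 96 h, the means were 0.119 ± 0.0227 FPKM in Hal leaves and 2.85 ± 1.21 FPKM in control leaves (SD, n = 3 each), with a contrast of -2.86 ± 0.26 (SE, adjusted p = 1.1e-08). BnaA03g54940D, for a PRA1 family protein of vesicle transport, averaged 6.27 ± 1.31 FPKM in Hal leaves and 2.08 ± 1.00 FPKM in control leaves at 48 h. For BnaA03g54940D at 96 h, the means were 3.35 ± 0.458 FPKM in Hal leaves and 8.12 ± 1.95 FPKM in control leaves (SD, n = 3 each), with a contrast of -2.33 ± 0.29 (SE, adjusted p = 1.3e-06).

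**Figure D2:**
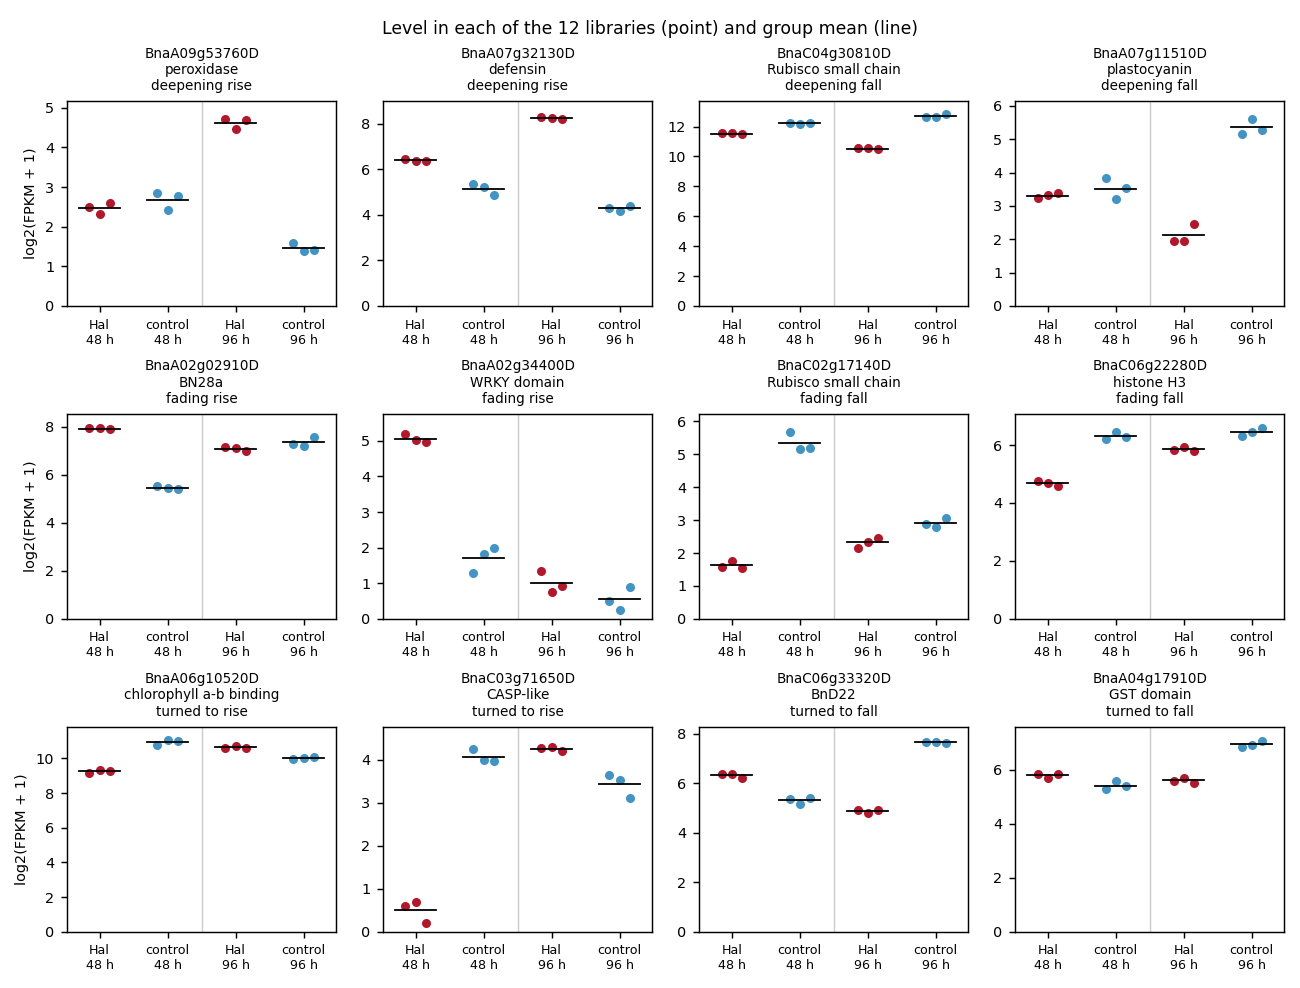
Level of 12 genes in log2(FPKM + 1) (vertical axis) in each of the 12 libraries (points, red for Hal and blue for control leaves, 3 a group) with the mean of the group (line), 2 genes for each class. In the defensin gene BnaA07g32130D the 3 Hal libraries at 96 h, between 297 and 313 FPKM, lie above all others, and in BnaC06g33320D the order of Hal and control leaves turns between the hours.

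Most Aux/IAA genes were upregulated at both hours, while of all 46395 tested genes 10828 were upregulated at 48 h and 13516 at 96 h. Of 62 tested Aux/IAA genes, which code for the repressors of ARFs, 42 were upregulated at 48 h and 44 at 96 h, and their median difference was 0.98 at 48 h and 1.17 at 96 h. Their summed level was 1180.5 to 1327 FPKM in Hal leaves, against 379 to 475 FPKM in control leaves, at 48 h, and 1232 to 1409.7 FPKM in Hal leaves, against 396 to 410.4 FPKM in control leaves, at 96 h. In the contrast, 5 shifted up and 3 down, with a median of 0.04, beside -0.01 over all tested genes (with equal totals 15 shifted up and 0 down, median 0.26, beside 18.3% up, 8.83% down and a median of 0.16 over all tested genes). The Aux/IAA gene with the smallest p, BnaA08g27770D, had 40.8, 39.1 and 45.1 FPKM in Hal leaves at 48 h, against 53.5, 42.5 and 53.6 FPKM in control leaves. For BnaA08g27770D at 96 h, the libraries had 55.2, 47.8 and 48.8 FPKM in Hal leaves, against 25.1, 23.8 and 26.7 FPKM in control leaves. The control level fell, the change of 0.27 in Hal leaves did not pass (adjusted p = 0.093), and the contrast was 1.23 ± 0.16 (SE, adjusted p = 3.6e-06).

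Beside the following lists, 11.5% of all tested genes shifted up and 14.5% down, or 18.3% and 8.83% with equal totals. Of 104 SAUR genes, short auxin-induced genes that promote cell expansion, 17 shifted up and 7 down, with a median of 0.15 (with equal totals 24 shifted up and 3 down, median 0.31), and 13 were deepening rises. BnaC02g07740D, the member with the smallest p, had 29.6, 28.3 and 24.2 FPKM in Hal leaves at 48 h, against 29.6, 18.7 and 26.4 FPKM in control leaves. For BnaC02g07740D at 96 h, the libraries had 49.7, 39.1 and 47.8 FPKM in Hal leaves, against 12.4, 9.64 and 10.3 FPKM in control leaves. It rose in Hal leaves and fell in control leaves, with a contrast of 1.83 ± 0.25 (SE, adjusted p = 4.4e-06), but the median over its neighbours on chromosome C02 was 0.90. Of 34 ARF genes, 7 shifted up, all of them deepening rises, and 1 down, with a median of 0.13 (with equal totals 9 shifted up and 1 down, median 0.27). BnaCnng54100D led them with 9.02, 7.20 and 9.12 FPKM in Hal leaves at 48 h, against 9.31, 9.26 and 9.57 FPKM in control leaves. For BnaCnng54100D at 96 h, the libraries had 16.1, 14.9 and 16.2 FPKM in Hal leaves, against 7.08, 7.54 and 6.28 FPKM in control leaves. Hal leaves rose and control leaves fell (contrast 1.21 ± 0.15 SE, adjusted p = 1.4e-06). Among 10 genes for auxin efflux carriers, the PIN-type exporters, 9 were upregulated at 48 h and 8 at 96 h, beside 10828 and 13516 of all 46395 tested genes. In the contrast 1 shifted up and 1 down, with a median of 0.03 (with equal totals 2 shifted up and 0 down, median 0.16). With a pseudocount of 0.1 the counts were also 2 up and 0 down. BnaA02g26940D shifted up, with 20.3 ± 0.931 FPKM in Hal leaves and 12.2 ± 3.37 FPKM in control leaves at 48 h. For BnaA02g26940D at 96 h, the means were 15.1 ± 2.63 FPKM in Hal leaves and 4.71 ± 0.206 FPKM in control leaves (SD, n = 3 each), with a contrast of 0.76 ± 0.22 (SE, adjusted p = 0.013), and 1 other member shifted down.

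Lists of other hormones were short, since few genes of the table carry such words. The shares over all tested genes were 11.5% up and 14.5% down. None of 6 ethylene genes was called in limma, by voom on reads or at an unadjusted p under 0.05 (0 in each case). Of 14 jasmonate genes, 3 shifted down and none up, with a median of 0.02, and outside the shifted windows 1 of 10 shifted down. BnaCnng78230D, with a lipoxygenase domain, of the enzymes that open jasmonate synthesis, had 8.09, 5.92 and 5.95 FPKM in Hal leaves at 48 h, against 3.41, 3.09 and 4.15 FPKM in control leaves. For BnaCnng78230D at 96 h, the libraries had 3.42, 3.32 and 3.55 FPKM in Hal leaves, against 10.5, 8.86 and 8.81 FPKM in control leaves. Hal leaves were above control leaves at 48 h and below them at 96 h (contrast -1.97 ± 0.27 SE, adjusted p = 4.8e-06). Of 5 cytokinin genes, 1 shifted down, BnaA07g37740D, for a cytokinin-activating phosphoribohydrolase, with 1.23 ± 0.226 FPKM in Hal leaves and 0.126 ± 0.0491 FPKM in control leaves at 48 h. For BnaA07g37740D at 96 h, the means were 0.880 ± 0.222 FPKM in Hal leaves and 0.709 ± 0.128 FPKM in control leaves (SD, n = 3 each). The control level rose, the change of -0.25 in Hal leaves did not pass (contrast -0.85 ± 0.25 SE, adjusted p = 0.014), and the call was lost with equal totals (adjusted p = 0.055). The only abscisic acid gene tested had a contrast of 0.47, which did not pass in limma, although its unadjusted p was under 0.05. It was upregulated at 96 h and not called at 48 h, at a level of at most 1.24 FPKM. The only gibberellin gene was a fading fall with a contrast of 0.83.

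Genes of the WRKY, NAC and immune receptor lists shifted up more often than down under both scalings. Over all tested genes, 11.5% shifted up and 14.5% down with the deposited scaling, and 18.3% up and 8.83% down with equal totals, so with equal totals genes at large also shifted up more often than down. Upregulated genes also grew in number over all 46395 tested genes, from 10828 at 48 h to 13516 at 96 h. Of 119 genes with a WRKY domain, transcription factors of defence and senescence, 33 shifted up and 3 down, with a median contrast of 0.43 (with equal totals 49 shifted up and 3 down, median 0.54), and 55 were upregulated at 48 h and 86 at 96 h. Their summed level was 445 to 449 FPKM in Hal leaves, against 227 to 267 FPKM in control leaves, at 48 h, and 559 to 643 FPKM in Hal leaves, against 198 to 203 FPKM in control leaves, at 96 h. The median change from 48 to 96 h was 0.25 in Hal leaves and -0.08 in control leaves. The WRKY gene with the smallest p went against the group: BnaA02g34400D was a fading rise, with 35.6, 31.4 and 30.4 FPKM in Hal leaves at 48 h, against 1.46, 2.55 and 2.98 FPKM in control leaves. For BnaA02g34400D at 96 h, the libraries had 1.55, 0.673 and 0.913 FPKM in Hal leaves, against 0.420, 0.194 and 0.854 FPKM in control leaves. Its high level in Hal leaves at 48 h was nearly gone at 96 h (contrast -2.89 ± 0.27 SE, adjusted p = 1.3e-08).

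NAC genes, for a plant transcription factor family with members that drive leaf senescence, also shifted up more often than down. Of 134 tested, 40 shifted up and 4 down, with a median of 0.37 (with equal totals 57 shifted up and 2 down, median 0.53), and 49 rose in Hal leaves from 48 to 96 h, against 12 in control leaves. Among all tested genes 11.6% rose in Hal leaves and 17.5% in control leaves with the deposited scaling. With equal totals, 8689 of all tested genes rose in Hal leaves and 5686 in control leaves. BnaC02g00990D had 9.34, 8.82 and 8.52 FPKM in Hal leaves at 48 h, against 11.4, 11.3 and 14.0 FPKM in control leaves. For BnaC02g00990D at 96 h, the libraries had 24.5, 23.6 and 22.9 FPKM in Hal leaves, against 9.56, 12.1 and 10.1 FPKM in control leaves, with a contrast of 1.51 ± 0.13 (SE, adjusted p = 8.1e-09), with a median of 0.74 over its neighbours. Of 132 genes with NB-ARC or TIR domains, which intracellular immune receptors carry, 39 shifted up and 4 down, with a median of 0.33 (with equal totals 48 shifted up and 2 down, median 0.43), and 32 were deepening rises. BnaC09g50760D, with an NB-ARC domain, had 0.0559, 0 and 0.0409 FPKM in Hal leaves at 48 h, against 0.276, 0.210 and 0.431 FPKM in control leaves. For BnaC09g50760D at 96 h, the libraries had 4.36, 4.75 and 5.28 FPKM in Hal leaves, against 0.378, 0.274 and 0.577 FPKM in control leaves. It stood under 0.6 FPKM in the 9 libraries other than Hal leaves at 96 h, with a contrast of 2.38 ± 0.16 (SE, adjusted p = 6.0e-11) and a neighbour median of 0.49. Outside the shifted windows, 26 of 104 WRKY genes, 28 of 105 NAC genes and 30 of 112 receptor genes shifted up, against 3, 3 and 4 that shifted down.

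Other transcription factor families were more mixed. The shares over all tested genes were 11.5% up and 14.5% down, or 18.3% and 8.83% with equal totals. Of 219 genes with an AP2 domain, which ethylene response factors carry, 38 shifted up and 15 down, with a median of 0.05 (with equal totals 55 shifted up and 12 down, median 0.21). BnaC01g35070D, the one with the smallest p, was a fading rise with 18.9, 15.9 and 15.0 FPKM in Hal leaves at 48 h, against 4.15, 4.50 and 3.52 FPKM in control leaves. For BnaC01g35070D at 96 h, the libraries had 16.1, 14.2 and 15.5 FPKM in Hal leaves, against 11.7, 10.6 and 11.3 FPKM in control leaves. Control leaves rose by 1.27, while the change of -0.11 in Hal leaves did not pass (contrast -1.38 ± 0.18 SE, adjusted p = 3.5e-06). Of 60 homeobox genes, regulators of development, 5 shifted up and 8 down, with a median of -0.06 (with equal totals 8 shifted up and 5 down, median 0.13). Their 8.33% up and 13.3% down lay near the shares over all tested genes. BnaC05g48840D, with a homeobox domain, averaged 0.208 ± 0.0776 FPKM in Hal leaves and 3.71 ± 0.741 FPKM in control leaves at 48 h. For BnaC05g48840D at 96 h, the means were 0.141 ± 0.139 FPKM in Hal leaves and 0.0319 ± 0.0552 FPKM in control leaves (SD, n = 3 each), and the level fell in control leaves (contrast 2.09 ± 0.23 SE, adjusted p = 1.7e-07). Of 95 genes with B-box or CCT domains, found in factors of light and clock responses, 11 shifted up and 9 down, with a median of 0.14 (with equal totals 24 shifted up and 4 down, median 0.29). The 11.6% that shifted up lay near the share over all tested genes. BnaC05g04870D, with a CCT domain, averaged 2.56 ± 0.262 FPKM in Hal leaves and 0.399 ± 0.0837 FPKM in control leaves at 48 h. For BnaC05g04870D at 96 h, the means were 1.14 ± 0.471 FPKM in Hal leaves and 1.89 ± 0.774 FPKM in control leaves (SD, n = 3 each), with a contrast of -1.77 ± 0.26 (SE, adjusted p = 1.6e-05).

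Heat shock genes, for chaperones and their regulators, shifted up more often than down. Among all 46395 tested genes, 11658 were downregulated and 10828 upregulated at 48 h, against 13999 and 13516 at 96 h. Of all tested genes 11.5% shifted up and 14.5% down, or 18.3% and 8.83% with equal totals. Of 96 tested heat shock genes, 36 were downregulated and 17 upregulated at 48 h, against 19 and 41 at 96 h. Their median difference was -0.21 at 48 h and 0.23 at 96 h. From 48 to 96 h, 26 rose and 5 fell in Hal leaves, beside 11.6% and 10.8% of all tested genes. In control leaves 14 rose and 29 fell, beside 17.5% and 12.3%. Their summed level at 48 h was 1356 to 1476 FPKM in Hal leaves, against 2126 to 3235 FPKM in control leaves. At 96 h it was 1631 to 2081 FPKM in Hal leaves, against 1571 to 1622 FPKM in control leaves. In the contrast 28 shifted up and 10 down, with a median of 0.28 (with equal totals 44 shifted up and 3 down, median 0.47), and 13 turned from a fall to a rise. BnaA10g27060D, with an HSP70 chaperone domain, had 1.73, 2.61 and 1.82 FPKM in Hal leaves at 48 h, against 28.8, 36.2 and 31.3 FPKM in control leaves. For BnaA10g27060D at 96 h, the libraries had 6.46, 6.47 and 5.62 FPKM in Hal leaves, against 13.7, 14.6 and 13.3 FPKM in control leaves. Its fall faded to a smaller one (contrast 2.39 ± 0.17 SE, adjusted p = 1.1e-10), while its neighbours went the other way, with a median of -0.65. Of 46 genes for chitinases, pathogenesis proteins and defensins, 10 shifted up and 12 down, with a median of -0.06, which was 0.12 with equal totals, and with equal totals 13 shifted up and 9 down.

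Enzymes of oxidation and detoxification went both ways. Among all tested genes, 11.5% shifted up and 14.5% down, or 18.3% and 8.83% with equal totals. Of 41 peroxidase genes, 7 shifted up and 12 down, with a median of -0.10, which was 0.15 with equal totals (10 up, 9 down). Of 77 glutathione transferase genes, which couple glutathione to foreign and oxidised compounds, 11 shifted up and 21 down, with a median of -0.23 (with equal totals 16 shifted up and 13 down, median -0.02). BnaA04g17910D, with a glutathione transferase domain, had 56.7, 51.1 and 57.0 FPKM in Hal leaves at 48 h, against 37.5, 47.4 and 40.6 FPKM in control leaves. For BnaA04g17910D at 96 h, the libraries had 47.1, 51.3 and 44.8 FPKM in Hal leaves, against 115, 120.4 and 134 FPKM in control leaves. The level of control leaves rose above that of Hal leaves, whose own change of -0.20 did not pass (adjusted p = 0.13), and the contrast was -1.74 ± 0.13 (SE, adjusted p = 3.6e-10).

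Photosystem and Rubisco genes shifted down more often than up under both scalings, and chlorophyll a-b binding protein genes did so clearly under the deposited scaling alone. Among all 46395 tested genes, 11658 were downregulated at 48 h and 13999 at 96 h. In the contrast 14.5% of all tested genes shifted down and 11.5% up, or 8.83% and 18.3% with equal totals. Of 42 tested genes for chlorophyll a-b binding proteins, 22 were downregulated at 48 h and 32 at 96 h, and 18 shifted down and 2 up, with a median contrast of -0.29. With equal totals the balance was near even, with 8 down, 6 up and a median of -0.03, beside 0.16 over all genes. In Hal leaves 28 of the 42 fell from 48 to 96 h and 3 rose, against 11 that fell and 8 that rose in control leaves. Among all tested genes 10.8% fell and 11.6% rose in Hal leaves, and 12.3% fell and 17.5% rose in control leaves. These counts hold for the deposited scaling. With equal totals, 3663 of all tested genes fell and 8689 rose in Hal leaves, and 6446 fell and 5686 rose in control leaves. Of 28 genes for photosystem and Rubisco proteins, 13 shifted down and 5 up, with a median of -0.46 (with equal totals 6 shifted up and 10 down, median -0.24). Their summed level was 20874 to 22238 FPKM in Hal leaves, against 43834 to 45447 FPKM in control leaves, at 48 h, and 13645 to 13947 FPKM in Hal leaves, against 50639 to 56074 FPKM in control leaves, at 96 h. BnaC04g30810D, an abundant Rubisco small chain gene, had 3031, 3024 and 2869.7 FPKM in Hal leaves at 48 h, against 4775, 4685 and 4868 FPKM in control leaves. For BnaC04g30810D at 96 h, the libraries had 1517, 1483 and 1429 FPKM in Hal leaves, against 6376, 6472 and 7293 FPKM in control leaves. Its level fell in Hal leaves and rose in control leaves, with a contrast of -1.5 ± 0.08 (SE, adjusted p = 8.3e-13), and the 5 members that shifted up were all fading falls, like the Rubisco gene BnaC02g17140D.

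Most genes of the 3 translation lists were downregulated at 48 h and at 96 h, against 11658 and 13999 of all 46395 tested genes. In the contrast 14.5% of all tested genes shifted down and 11.5% up, or 8.83% and 18.3% with equal totals. Of 121 genes for cytosolic ribosomal proteins, 109 were downregulated at 48 h and 110 at 96 h, with median differences of -1.56 at 48 h and -1.81 at 96 h. In the contrast 27 shifted down and 14 up, with a median of -0.18, but with equal totals 17 shifted down and 25 up, with a median of 0.03. From 48 to 96 h 56 of them rose in control leaves and 22 in Hal leaves, beside 17.5% and 11.6% of all tested genes. These counts hold for the deposited scaling. With equal totals, 5686 of all tested genes rose in control leaves and 8689 in Hal leaves. Their summed level was 1349 to 1468 FPKM in Hal leaves, against 4286 to 4895 FPKM in control leaves, at 48 h, and 1479 to 1550.2 FPKM in Hal leaves, against 5574 to 6362 FPKM in control leaves, at 96 h. Of 8 genes for ribosomal proteins of plastids and mitochondria, 6 shifted down and none up, with a median of -0.79 (with equal totals 0 shifted up and 4 down, median -0.53). BnaA09g41680D, for protein L35 of the 50S subunit, had 191, 204 and 179 FPKM in Hal leaves at 48 h, against 431, 518 and 499 FPKM in control leaves. For BnaA09g41680D at 96 h, the libraries had 114, 105 and 103 FPKM in Hal leaves, against 558, 614 and 609 FPKM in control leaves, with a contrast of -1.13 ± 0.11 (SE, adjusted p = 2.0e-08). Of 57 tRNA ligase genes, which charge tRNAs with amino acids, 38 were downregulated and 2 upregulated at 48 h, against 35 and 5 at 96 h. In the contrast 15 shifted down and 9 up, with a median of -0.16, and with equal totals 12 down and 14 up, with a median of 0.07. BnaC05g19840D, with a tRNA synthetase domain, turned to a rise, with 13.1 ± 0.984 FPKM in Hal leaves and 18.8 ± 1.43 FPKM in control leaves at 48 h. For BnaC05g19840D at 96 h, the means were 19.1 ± 1.22 FPKM in Hal leaves and 11.9 ± 1.10 FPKM in control leaves (SD, n = 3 each), with a contrast of 1.12 ± 0.11 (SE, adjusted p = 5.5e-08).

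Histone genes, whose products package DNA and which are most expressed in dividing cells, shifted down more often than up. Among all 46395 tested genes, 11658 were downregulated at 48 h and 13999 at 96 h. Of all tested genes 14.5% shifted down and 11.5% up, or 8.83% and 18.3% with equal totals. Of 119 tested histone genes, 78 were downregulated at 48 h and 93 at 96 h. In the contrast 39 shifted down and 8 up, with a median of -0.38 (with equal totals 16 shifted up and 25 down, median -0.15). In Hal leaves 46 fell from 48 to 96 h and 10 rose, against 14 that fell and 24 that rose in control leaves. Among all tested genes 10.8% fell and 11.6% rose in Hal leaves, and 12.3% fell and 17.5% rose in control leaves. These counts hold for the deposited scaling. With equal totals, 3663 of all tested genes fell and 8689 rose in Hal leaves, and 6446 fell and 5686 rose in control leaves. The histone gene with the smallest p was an exception, since the fall of BnaC06g22280D, for histone H3, faded: it had 26.0, 24.8 and 23.3 FPKM in Hal leaves at 48 h, against 73.1, 87.2 and 76.3 FPKM in control leaves. For BnaC06g22280D at 96 h, the libraries had 55.2, 60.7 and 54.2 FPKM in Hal leaves, against 77.8, 86.6 and 94.8 FPKM in control leaves. Its level rose in Hal leaves, while the change of 0.13 in control leaves did not pass (contrast 1.04 ± 0.12 SE, adjusted p = 3.9e-07). Of 25 cyclin and DNA replication genes, 3 shifted down and 1 up, with a median of 0.04 (with equal totals 2 shifted up and 1 down, median 0.10), and the median change was -0.29 in Hal leaves and -0.29 in control leaves. BnaA04g16160D, for a regulatory subunit of cyclin-dependent kinases, averaged 1.25 ± 0.0894 FPKM in Hal leaves and 1.78 ± 0.156 FPKM in control leaves at 48 h. For BnaA04g16160D at 96 h, the means were 0.522 ± 0.0509 FPKM in Hal leaves and 2.84 ± 0.743 FPKM in control leaves (SD, n = 3 each), with a contrast of -1.01 ± 0.26 (SE, adjusted p = 0.0045). Of 132 tubulin and kinesin genes, 18 shifted up and 20 down, with a median of 0.06 (with equal totals 23 shifted up and 11 down, median 0.17). Their 13.6% up and 15.2% down lay near the shares over all tested genes. Outside the shifted windows the count was 8 up and 15 down of 101. Split by domain, which was done after the values were seen, the list held unlike counts. Of genes with a tubulin domain, 7 of 59 shifted up and 18 down, with a median of -0.28, and with equal totals 9 up and 10 down. Of genes with a kinesin domain, motors that move along microtubules, 11 of 66 shifted up and 1 down, with a median of 0.23, but outside the shifted windows 4 of 52 up and 1 down.

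Among wall genes, the lists differed in direction. The shares over all tested genes were 11.5% up and 14.5% down, or 18.3% and 8.83% with equal totals. Of 65 genes for xyloglucan-modifying enzymes and expansins, which loosen walls during growth, 24 shifted down and 8 up, with a median of -0.37 (with equal totals 9 shifted up and 17 down, median -0.17), and 17 were deepening falls. Outside the shifted windows the count was 13 down and 5 up of 43. BnaCnng38050D, a xyloglucan endotransglucosylase gene, went against them and turned to a rise, with 10.2, 10.5 and 11.1 FPKM in Hal leaves at 48 h, against 21.5, 20.8 and 22.5 FPKM in control leaves. For BnaCnng38050D at 96 h, the libraries had 12.8, 12.7 and 14.5 FPKM in Hal leaves, against 7.46, 8.67 and 8.27 FPKM in control leaves. The level fell in control leaves and rose a little in Hal leaves (contrast 1.61 ± 0.13 SE, adjusted p = 2.0e-09). Of 72 pectin-modifying genes, 19 shifted up and 10 down, with a median of 0.04 (with equal totals 22 shifted up and 6 down, median 0.21). BnaA01g31480D, for a pectinesterase, which demethylates pectin, had 28.4, 27.1 and 27.9 FPKM in Hal leaves at 48 h, against 18.9, 17.6 and 20.4 FPKM in control leaves. For BnaA01g31480D at 96 h, the libraries had 21.0, 21.1 and 22.9 FPKM in Hal leaves, against 4.23, 3.73 and 3.39 FPKM in control leaves. Control leaves fell further than Hal leaves did, with changes of -0.35 in Hal leaves and -2.06 in control leaves (contrast 1.72 ± 0.12 SE, adjusted p = 2.2e-10). Of 14 cellulose synthase genes, 5 shifted up and none down, with a median of 0.16 (with equal totals 6 shifted up and 0 down, median 0.35). BnaC02g02440D averaged 8.19 ± 0.511 FPKM in Hal leaves and 18.6 ± 3.00 FPKM in control leaves at 48 h. For BnaC02g02440D at 96 h, the means were 16.5 ± 1.66 FPKM in Hal leaves and 12.1 ± 0.834 FPKM in control leaves (SD, n = 3 each), with a contrast of 1.51 ± 0.15 (SE, adjusted p = 5.1e-08) beside a neighbour median of 0.68. Of 12 lipid-transfer protein genes, which carry lipids to the surface, 4 shifted down and 2 up, with a median of -0.01, which was 0.20 with equal totals. BnaC03g71570D averaged 15.9 ± 2.13 FPKM in Hal leaves and 17.8 ± 1.05 FPKM in control leaves at 48 h. For BnaC03g71570D at 96 h, the means were 8.6 ± 0.571 FPKM in Hal leaves and 23.6 ± 1.91 FPKM in control leaves (SD, n = 3 each), with a contrast of -1.20 ± 0.19 (SE, adjusted p = 3.9e-05).

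Lists of secondary and storage metabolism were small. Among all tested genes, 11.5% shifted up and 14.5% down. Of 22 phenylpropanoid and flavonoid genes, 7 shifted down and 3 up, with a median of -0.08, which was 0.13 with equal totals. BnaA06g00880D, of the chalcone-flavonone isomerase family of flavonoid synthesis, had 16.5, 12.5 and 13.6 FPKM in Hal leaves at 48 h, against 28.6, 24.2 and 27.7 FPKM in control leaves. For BnaA06g00880D at 96 h, the libraries had 1.56, 1.75 and 3.35 FPKM in Hal leaves, against 30.4, 36.1 and 35.7 FPKM in control leaves. It was nearly lost from Hal leaves by 96 h (contrast -2.61 ± 0.21 SE, adjusted p = 1.1e-09). Both glucosinolate genes tested shifted down, with a median of -1.54. Of 29 starch and sucrose genes, 5 shifted up and 5 down, with a median of -0.09, which was 0.10 with equal totals. BnaA08g05660D, for a beta-amylase, which releases maltose from starch, had 0, 0 and 0.0303 FPKM in Hal leaves at 48 h, against 0.260, 0.350 and 0.142 FPKM in control leaves. For BnaA08g05660D at 96 h, the libraries had 0, 0 and 0 FPKM in Hal leaves, against 6.11, 6.79 and 8.91 FPKM in control leaves. The transcript rose in control leaves and was at or near 0 in Hal leaves at both hours, and the contrast was -2.73 ± 0.19 (SE, adjusted p = 8.9e-11). The list of senescence words matched no gene of the table, and the 1 seed storage gene tested was a deepening rise at a level of at most 1.29 FPKM.

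**Figure D3:**
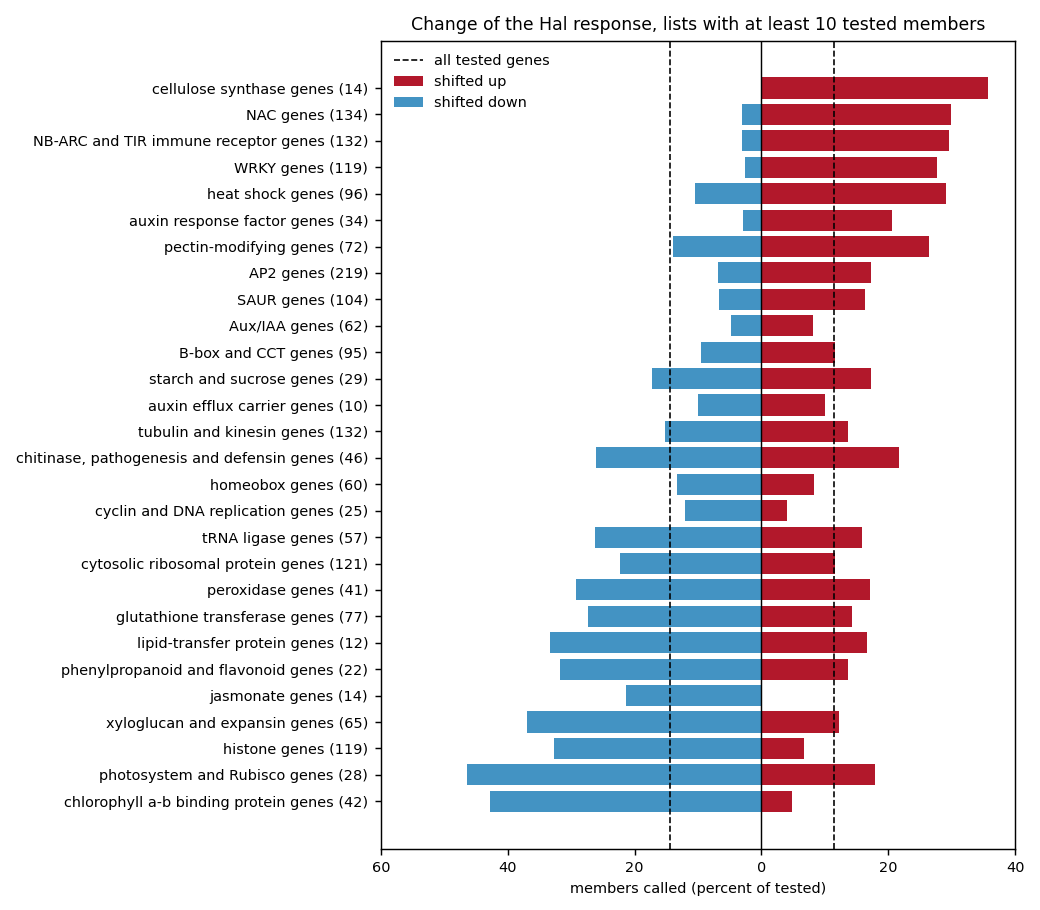
Share of the tested members of each list (percent, number tested in brackets) that shifted up (red, to the right) or down (blue, to the left) in the change of the Hal response, with the shares over all tested genes as broken lines (11.5% up, 14.5% down). NAC, WRKY and immune receptor genes lie to the right and photosynthesis and histone genes to the left.

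**Figure D4:**
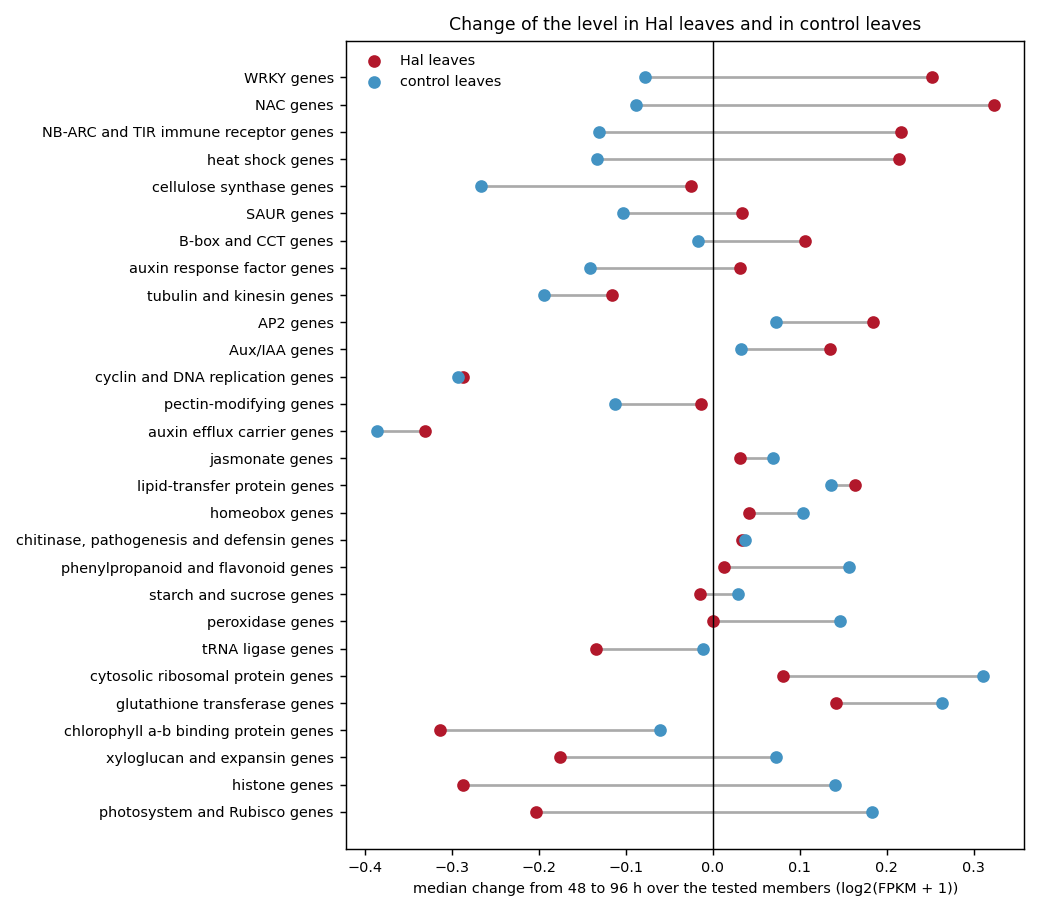
Median change of the level from 48 to 96 h over the tested members of each list, in log2(FPKM + 1), in Hal leaves (red) and control leaves (blue), joined by a line. The dots of WRKY genes lie at 0.25 in Hal leaves and -0.08 in control leaves, and those of photosystem and Rubisco genes at -0.20 in Hal leaves and 0.18 in control leaves.

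The change from 48 to 96 h in Hal leaves was also set against that in Pic leaves, which needs no control library. In this test 4901 genes (10.6%) had the higher change in Hal leaves and 5282 (11.4%) the lower, with a median of 0.02, and it shares the 6 Hal libraries with the contrast above. Of histone genes, 51 of 119 were lower in Hal leaves and 9 higher, with a median of -0.57. Cytosolic ribosomal protein genes (43 of 121 lower, 5 higher, median -0.43), tRNA ligase genes (22 of 57 lower, 3 higher, median -0.35), cyclin and DNA replication genes (13 of 25 lower, median -0.68) and phenylpropanoid genes (12 of 22 lower, 2 higher, median -0.70) were also more often lower than higher. Chlorophyll a-b binding protein genes went the other way: 15 of 42 had the higher change in Hal leaves and 5 the lower. Photosystem and Rubisco genes did not share this, with 9 of 28 lower and 3 higher and a median of -0.01. Aux/IAA genes had 17 of 62 higher and 2 lower, and NAC genes had 30 of 134 higher and 5 lower. WRKY genes had 15 of 119 higher, near the share over all tested genes, and 7 lower. PR-1a, BnaA03g38630D, had 577, 602 and 552 FPKM in Hal leaves and 15.3, 15.8 and 15.0 FPKM in Pic leaves at 48 h. At 96 h PR-1a had 905, 933 and 871 FPKM in Hal leaves and 102, 119 and 100.2 FPKM in Pic leaves. On the log2 scale its Hal-minus-Pic change was -2.07 ± 0.11 (SE, adjusted p = 7.0e-13).

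Part of the contrast lay in neighbouring genes that shifted together. With genes ordered by the number in their names, 19 blocks of at least 50 tested genes, 3336 genes on 12 chromosomes, had shifted windows throughout. The largest shift upward over more than 100 genes was on chromosome C02, from BnaC02g00010D to BnaC02g09760D, with 437 tested genes, a median contrast of 0.74 and 245 genes called upward against 8 downward. Its genes lay -0.55 to -0.49 from their own means in the 3 Hal libraries at 48 h, against 0.17 to 0.20 in control leaves, and 0.03 to 0.05 in Hal leaves at 96 h, against 0.00 to 0.01 in control leaves (medians over the block, log2). A single group, Hal leaves at 48 h, therefore stood low over the whole block. At the start of chromosome A02 this group stood high instead. There 111 genes, from BnaA02g00100D to BnaA02g02160D, had a median contrast of -0.44. They lay 0.28 to 0.29 from their own means in Hal leaves at 48 h, against -0.14 to 0.00 in control leaves. At 96 h the values were -0.04 to -0.02 in Hal leaves and -0.06 to -0.02 in control leaves. On chromosome C03, 578 genes from BnaC03g02600D to BnaC03g13910D had a median contrast of -0.59, and there the control leaves differed most between the hours, with -0.29 to -0.26 at 48 h and 0.31 to 0.35 at 96 h. On A03, 450 genes from BnaA03g02200D to BnaA03g09970D had a median of 0.55, again with the larger difference between hours in control leaves, with 0.20 to 0.21 at 48 h and -0.29 to -0.28 at 96 h. On C06 the 359 genes from BnaC06g28430D to BnaC06g35950D had -0.60, on the end of A10 the 90 genes from BnaA10g26410D to BnaA10g27900D had -0.77, and at the start of C03 99 genes had 0.83. Outside the shifted windows some list counts were smaller by over 1.5 times, of fewer genes tested: 18 up and 6 down of 74 for heat shock genes, 11 up and 8 down of 55 for pectin-modifying genes, 7 up and 18 down of 63 for glutathione transferase genes and 1 up and 4 down of 12 for phenylpropanoid and flavonoid genes. Histone genes had 4 up and 27 down of 89.

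Within a group the 3 libraries agreed closely over these blocks, with a median spread of 0.05 and at most 0.20, while the groups differed by 0.27 to 0.85. The p-values rest on that spread between the libraries of a group. The part of the blocks in the calls of single genes within them was not tested.

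**Figure D5:**
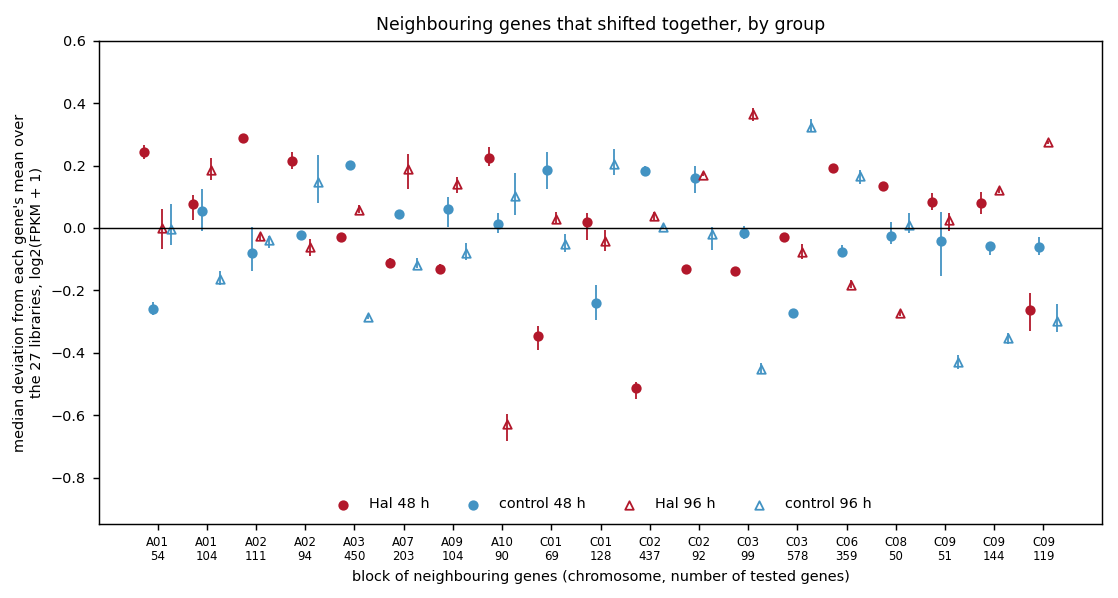
Median deviation of the genes in each of 19 blocks from their own mean over the 27 libraries, in log2(FPKM + 1) (vertical axis), with the mean of the 3 libraries of a group (circles for 48 h, triangles for 96 h, red for Hal and blue for control leaves) and their lowest and highest value (line). In the C02 block of 437 genes the Hal libraries at 48 h lie near -0.5 and the other 3 groups between 0 and 0.2.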

How the data were processed

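RNA of leaves was sequenced in 27 libraries, 9 groups of 3. The values deposited by the authors are FPKM per gene, with gene length, and the submitters' processing notes list CASAVA, HISAT2, StringTie, DESeq2, edgeR and GATK without roles. The genome build is not given in the sources used here. Reads worked back from FPKM and length were whole (tolerance 0.02) in 100% of values, and the deposited scaling equals median-ratio size factors. Of 104573 genes, 46395 with at least 1 FPKM in at least 3 libraries were tested with limma 3.58.1 (R 4.3.3), with a variance trend, on log2(FPKM + 1), over all 9 groups, two-sided, with Benjamini-Hochberg adjustment and a threshold of 0.05. Fold changes on this scale understate low genes. Named genes were the 5 with the largest contrast in each deepening and fading class, and the 3 in each turned class, among genes with a description whose replicates do not overlap between hours, and the called member with the smallest p of each list with at least 3 tested members. Members and lists were chosen with earlier results of these data known. Lists rest on words or domains, which 27497 tested genes lack. The test was also run on simulated libraries. Of changes of 2 on the log2 scale, it found 49 of 50 upward and 43 of 50 downward. Of changes of 1 it found 15 of 50 upward and 7 of 50 downward. At the spread set there, and with 200 of 46395 genes changed, small changes were thus often missed, downward ones more than upward ones. The adjusted p depends on how many genes change, and 12032 genes were called in the data. These rates therefore do not give the share of changes missed in the data. P-values measure the spread between these samples, which may be partly technical. Alternatives were the pseudocount, filters, equal totals of reads, limma voom on reads, a replicate block and each library left out. No column of per-sample values was left unused.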

Additional observations from a re-analysis of the deposited data

Results flagged for a closer look

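The change of level from 48 to 96 h differed between Hal and Pic leaves in 10183 genes, in a limma test of the difference itself, in which the control libraries cancel. It also differed in 41 of the 53 named genes, for which Hal-minus-Pic changes follow on the log2(FPKM + 1) scale. Among deepening rises, the change was higher in Hal leaves than in Pic leaves for the miR156 locus ENSRNA049464944 (2.77), BnaA09g53760D (1.12), the miR156 locus ENSRNA049468749 (2.42), BnaA07g32130D (2.06), BnaC02g07740D (1.63), BnaCnng54100D (0.48) and BnaC03g18820D (0.56). In the same class it was lower in Hal leaves for BnaA01g31480D (-0.68) and BnaA03g38630D (-2.07). Among fading rises, the change was lower in Hal leaves than in Pic leaves for BnaC09g25980D (-6.18), the miR156 locus ENSRNA049474664 (-3.03), BnaA02g02910D (-2.14), BnaA09g18460D (-0.51), BnaCnng14900D (-2.02), BnaA02g34400D (-1.10) and BnaC05g04870D (-1.36). Among deepening falls, the change was lower in Hal leaves than in Pic leaves for BnaA01g07470D (-1.30), BnaA07g11510D (-1.66), BnaC02g39910D (-2.75), BnaA09g41680D (-0.96), BnaC04g30810D (-0.86), BnaC03g71570D (-0.58) and BnaA06g00880D (-2.11). Among fading falls, the change was higher in Hal leaves than in Pic leaves for BnaC02g17140D (1.34), snoR116 (3.10), BnaC09g28670D (3.78), BnaC06g22280D (2.32) and BnaA10g27060D (1.01). In the same class it was lower in Hal leaves for BnaC08g39130D (-1.24) and BnaC05g48840D (-2.60). Of the genes that turned to a rise, the change was higher in Hal leaves than in Pic leaves for BnaCnng02920D (1.33), BnaA06g10520D (1.17), BnaC05g19840D (0.33), BnaC02g02440D (1.05), BnaC09g50760D (2.35) and BnaC02g00990D (0.53). Of the genes that turned to a fall, the change was lower in Hal leaves than in Pic leaves for BnaC06g33320D (-1.84), BnaC07g33030D (-2.23), BnaA03g54940D (-1.97), BnaCnng78230D (-2.20) and BnaA04g17910D (-2.53). The SWEET gene BnaC09g25980D, a fading rise against control leaves, had 30.1, 25.4 and 24.0 FPKM in Hal leaves and 0.390, 0.525 and 0.860 FPKM in Pic leaves at 48 h. At 96 h this gene had 0, 0 and 0 FPKM in Hal leaves and 3.47, 3.54 and 2.59 FPKM in Pic leaves.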

How the results depend on the processing

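With equal totals of reads 8479 genes shifted up and 4097 down in place of 5317 and 6715, 8689 genes rose in Hal leaves from 48 to 96 h in place of 5400, and there were 6455 deepening rises and 2257 deepening falls. 67.4% of called genes then shifted up, against 44.2% with the deposited scaling, and the cause was not tested. With FPKM of at least 5 in at least 3 libraries, 3161 genes shifted up, of fewer genes tested. With a contrast of at least 1 in size, 1959 genes shifted up and 2514 down. Leaving out 1 of the 12 Hal and control libraries at a time gave 4485 to 5185 genes up and 5842 to 6630 down. For the Hal change against the Pic change, leaving out 1 of the 12 Hal and Pic libraries at a time gave 4087 to 4643 genes higher and 4595 to 5060 lower. Whether the replicate numbers pair the samples was not settled, and the main fit did not pair them. Same-numbered Hal and control libraries had weak correlations of deviations, 0.006 to 0.109. Of 6 Hal libraries, 4 correlated best with their own number. With the replicate block 4839 genes shifted up and 6192 down, and 4452 and 4804 genes had the higher and the lower change in Hal than in Pic leaves. Of 848 values of 53 named genes under alternatives, 846 kept their direction and call, and 2 lost the call, the miR156 locus ENSRNA049468749 with a pseudocount of 0.1 and BnaA07g37740D with equal totals. None changed sign. Most of these genes were chosen for a large contrast with replicates apart, or for the smallest p of a list. Their stability follows in part from that choice and does not speak for other called genes. Of all 12032 called genes, 8378 stayed called with each of the 12 libraries left out in turn. Of 62 counts in lists, 36 stayed within 1.5 times with equal totals, 57 with a pseudocount of 0.1 and 48 without the shifted windows. Without these windows, an alternative chosen after seeing the data, 3631 genes shifted up and 5143 down.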

Other observations

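Protein domain families outside the lists were chosen for the text after their values were seen, so their counts are a description. Over all tested genes 11.5% shifted up and 14.5% down, and with equal totals 18.3% up and 8.83% down. Some families had more genes that shifted up than down. Of genes with a tyrosine kinase-like domain, which receptor kinases carry, 137 of 528 shifted up and 28 down (median 0.25, with equal totals 192 up, 16 down and 0.39). Of genes with an ion transport domain, as in ion channels, 18 of 43 shifted up and 1 down (median 0.48, with equal totals 23 up, 0 down and 0.66). Of sodium/calcium exchanger genes, 13 of 27 shifted up and 0 down (median 0.33, with equal totals 14 up, 0 down and 0.56). Of genes for Exo70, a subunit of the exocyst that tethers secretory vesicles, 10 of 30 shifted up and 0 down (median 0.31, with equal totals 15 up, 0 down and 0.49). Of sugar transporter genes, 34 of 108 shifted up and 11 down (median 0.18, with equal totals 42 up, 9 down and 0.39), and of ABC2 membrane transporter genes, 16 of 41 shifted up and 1 down (median 0.27, with equal totals 20 up, 1 down and 0.38). Other families of signalling and transport did not share this. Of Ras-type small GTPase genes, 14 of 211 shifted up and 35 down (median -0.17, with equal totals 21 up, 16 down and 0.05), and of Arf-type small GTPase genes, 4 of 69 shifted up and 17 down (median -0.36, with equal totals 10 up, 10 down and -0.11). Of mitochondrial carrier genes, 14 of 154 shifted up and 36 down (median -0.17, with equal totals 25 up, 27 down and 0.03), and of amino acid transporter genes, 17 of 92 shifted up and 17 down (median -0.02, with equal totals 24 up, 13 down and 0.18).

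Further families had more genes that shifted down than up. Of genes with a 2Fe-2S ferredoxin domain, of proteins that carry electrons, 4 of 42 shifted up and 20 down (median -0.47, with equal totals 4 up, 14 down and -0.21). Of adenylate kinase genes, 0 of 28 shifted up and 13 down (median -0.39, with equal totals 0 up, 5 down and -0.15). Of aldo/keto reductase genes, 1 of 36 shifted up and 16 down (median -0.46, with equal totals 3 up, 9 down and -0.25). Of genes with a plastocyanin-like copper-binding domain, 1 of 48 shifted up and 14 down (median -0.46, with equal totals 1 up, 10 down and -0.28). Of universal stress protein genes, 3 of 44 shifted up and 16 down (median -0.37, with equal totals 5 up, 7 down and -0.17). Of proteasome subunit genes, whose products degrade marked proteins, 0 of 79 shifted up and 19 down (median -0.27, with equal totals 2 up, 7 down and -0.05), where the share that shifted down with equal totals was near that over all tested genes.

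The SBP domain marks SPL transcription factors, many of which are known targets of miR156. Of genes with this domain, 11 of 41 shifted up and 3 down (median 0.27, with equal totals 13 up, 2 down and 0.41). No pairing of single loci with single SPL genes was made.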
